A study of Drosophila melanogaster with 14 samples.

Results

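These are the CP190 peaks of dCTCFΔ705-733 flies that had no CP190 peak at the same place in dCTCF wild-type flies. They were chosen by the intervals of the deposited peak lists, as the 825 of 3164 peaks of the deletion line (26.1% of that list) that shared not 1 bp with any of the 2517 wild-type CP190 peaks. The 2339 other peaks of the deletion list are called shared, and the 165 wild-type CP190 peaks without a deletion peak are called wild-type-only. Chromatin immunoprecipitation followed by sequencing (ChIP-seq) was done on whole adult Drosophila melanogaster 2 to 3 days old, labelled as strain Oregon-R. Peaks were given for an HA antibody, a dCTCF antibody and a CP190 antibody, each in the genotype dCTCFΔ705-733, a dCTCF deletion named by its span (the deletion line), and in the genotype dCTCFwt. Each of these 6 groups had 2 replicate libraries combined into 1 list, and the mouse and rat preimmune controls had 1 library each, both labelled wt. Chromatin came from many flies pooled, and nothing in the labels says that replicates were separate pools. How the HA-tagged protein is expressed is not given in the sources used here. With 1 list per antibody and genotype there was no spread between replicates and no test between genotypes. The lists hold no read counts, so depth is unknown, and the 95% intervals below cover counting error over peaks only.

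CP190 is a protein of fly insulators with zinc fingers and a BTB domain. It is brought to chromatin mostly by DNA-binding partners, among them dCTCF (the fly homologue of CTCF), Su(Hw) and BEAF-32, and it is also found at promoters of broadly expressed genes. Insulators limit the reach of enhancers and silencers and can separate chromatin domains.

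The deletion-only peaks were mostly weak peaks of their list, apart from 6 at its top. Their median fold enrichment over the preimmune library, which is the authors' own value, was 3.55, with quartiles of 3.04 and 4.32, against 10.8 for shared peaks, with quartiles of 6.10 and 21.6. Their median place by fold enrichment was 2676 of 3164, and that of shared peaks was 1176. In steps of 10% of the list from its weak end, the deletion-only peaks made up 277 of 317 peaks in step 1, 223 of 316 in step 2, then 163, 98, 47, 10, 1, 0 and 1, and 5 of 317 in the strongest step. The deletion list was longer than the wild-type list, and 507 of the 825 lay at places beyond 2517, the length of the wild-type list, while 318 lay within it. All of these values come from the contrast that chose the peaks and describe them without a test.

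**Figure D1:**
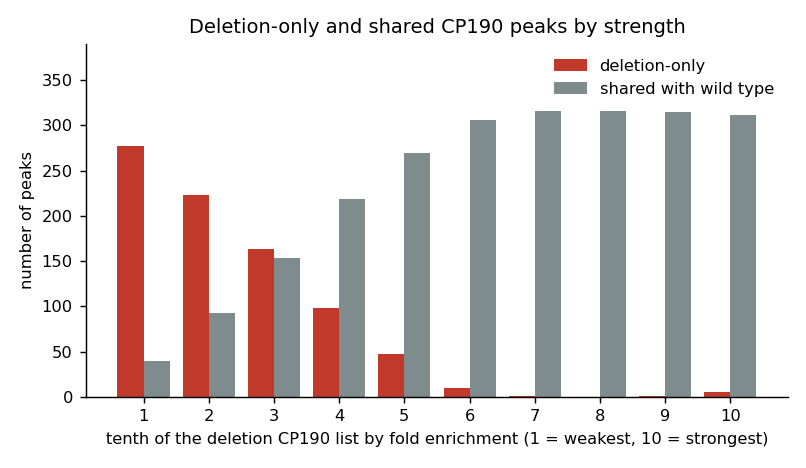
Number of deletion-only peaks (red, left bars) and shared peaks (grey, right bars) in each 10% of the deletion CP190 list by fold enrichment, weakest at the left. Deletion-only peaks number 277 in the weakest step and 0 in step 8, and 5 appear again in the strongest.

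The deletion-only peaks were narrow, as weak peaks of this list were in general. Their median width was 558 bp (interval 539 to 570), with quartiles of 441 and 719 bp, and the median of shared peaks was 934 bp (908 to 953). In the weakest 25% of the list the medians were closer, at 514.5 bp (496 to 538) for the 586 deletion-only peaks and 598 bp (567 to 641) for the 205 shared peaks. In the next 25% they were 637.5 bp (613 to 675) for 222 deletion-only peaks and 694 bp (666 to 717) for 569 shared peaks. Width bears on the rule, since a narrow peak has less room to overlap.

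The list scores each peak by the irreproducible discovery rate (IDR), which is low when a peak ranks alike in both sets of calls, and it ends at a global IDR of 0.00999. Every listed peak had passed that limit, so the values below describe peaks already selected for repeating, and whether the sets of calls were the replicates is not given. Deletion-only peaks had a median global IDR of 0.00347 and a median distance of 23 bp between the summits of both sets, and shared peaks had 0.00219 and 11 bp. The summits of both sets lay within 50 bp of each other in 654 of 825 deletion-only peaks (79.3%, 76.4 to 81.9) and in 2183 of 2339 shared peaks (93.3%, 92.2 to 94.3). Within steps of strength the medians were closer. In the weakest 25% of the list the median summit distance was 26 bp (23 to 29) for deletion-only and 25 bp (20 to 31) for shared peaks, and the median IDR 0.00387 and 0.00325. In the next 25% these were 19.5 bp (16 to 23) and 18 bp (16 to 19), and 0.00264 and 0.00245. The interval of the second set of calls touched a wild-type CP190 peak in 1 of the 825.

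No deletion-only peak came closer than 280 bp to a wild-type CP190 peak, and no shared peak overlapped one by less than 242 bp. Other forms of the rule moved some peaks across its border. There were 878 deletion-only peaks with at least 50% of a peak covered as the overlap, and 861 with summits at most 200 bp apart. Of the members, the 3 nearest to a wild-type CP190 peak lay 280 bp away at 2L 16486265 to 16487312 (2.63-fold, between dac, a nuclear factor of eye and leg development, and Nepl8), 287 bp away at 3R 31017424 to 31017998 (2.93-fold, between 5-HT7, a serotonin receptor, and CG33773), and 324 bp away at 2L 2193169 to 2193971 (4.35-fold, inside COX7AL2). On the other side, the 3 shared peaks with the smallest overlaps had 242 bp at 3R 17449475 to 17449716 (3.08-fold, between Eh and CG14330), 251 bp at 3R 12477325 to 12477575 (3.69-fold, inside lncRNA:alphagamma-element:CR32865) and 261 bp at 2R 20994744 to 20995059 (3.58-fold, partly in Prosalpha3, a proteasome subunit). The overlaps of 242 and 251 bp were the whole widths of peaks that lay inside a wild-type peak, so the smallest overlaps follow peak width. In all, 9 of the 825 lay within 500 bp of a wild-type CP190 peak and 30 within 1000 bp (3.64%).

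The 6 deletion-only peaks in the strongest 25% of the list stood apart from the other 819. They held places 2, 3, 14, 52, 141 and 540, the next deletion-only peak was at place 1199, and the 658 peaks in between were all shared. All 6 overlapped a peak of an HA or dCTCF list, against 36 of the other 819.

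The strongest lay at 3R 11764017 to 11765277, between Lk6, a protein kinase gene, and l(3)neo38, with 139-fold enrichment (place 2) and its summit 139 bp from an end of Lk6. It overlapped a weak wild-type HA peak (place 493 of 627) and a weak wild-type dCTCF-antibody peak (place 475 of 700), whose summits were 21 and 3 bp from its own, and no HA or dCTCF peak of the deletion line. The nearest wild-type CP190 peak was 68611 bp away. The second, at 3R 16797867 to 16799477, was the only deletion-only peak between the homeotic genes Ubx and Abd-B and lay between Glut3 and lncRNA:CR45750, 8548 bp from an end of abd-A. It reached 136-fold (place 3) and overlapped peaks in all 4 HA and dCTCF lists, in the weaker 50% of both deletion lists and of the wild-type HA list: 446 of 623 and 402 of 648 for HA and dCTCF antibody in the deletion line, and 340 of 627 and 292 of 700 in wild type. At these 2 places CP190 was near the top of its list where dCTCF was not.

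At the next 3 places dCTCF was itself among the strongest peaks. The peak at 3L 5868915 to 5871294, between vn, which encodes a ligand of the EGF receptor, and CG5568, had 105-fold enrichment (place 14). It coincided with place 4 of the deletion HA list, place 4 of the deletion dCTCF-antibody list and place 6 of the wild-type dCTCF-antibody list. The peak at 3L 2851176 to 2852544, inside Tet, the fly member of the TET enzyme family, had 82.1-fold enrichment (place 52) and coincided with places 1, 2 and 3 of those same lists. The peak at 2L 14705734 to 14707440, between osp and CG15282, had 53.9-fold enrichment (place 141) and coincided with places 53, 22 and 1. All 9 of these summits lay 1 to 24 bp from the CP190 summit. None of the 3 places had a wild-type HA peak, although the dCTCF antibody gave a wild-type peak at each. The HA list of the deletion line stops at an IDR of 0.00998, whereas that of wild type goes up to 0.0493, the wider limit. The sixth peak, at 2L 9166161 to 9167405 between CG9586 and tai, a coactivator of the ecdysone receptor, had 23.5-fold enrichment (place 540) and overlapped only the edge of a deletion dCTCF-antibody peak of place 601, with summits 649 bp apart.

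Values of the IDR move with these strong peaks. In the deletion CP190 list the global IDR was lowest at intermediate enrichment and rose again at the top, to a median of 0.00634 over the 10 strongest peaks, close to the 0.01 at which the list ends. The 2 strongest deletion-only peaks had 0.00845 and 0.00689, and the next 4 had 0.00497, 0.00277, 0.00225 and 0.00194. The wild-type list rose in the same way, to a median of 0.00497 and a highest value of 0.00948 over its 10 strongest peaks. A peak above the limit would not be listed, and the part of this limit in the absence of wild-type CP190 peaks at the 6 places was not tested.

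**Figure D2:**
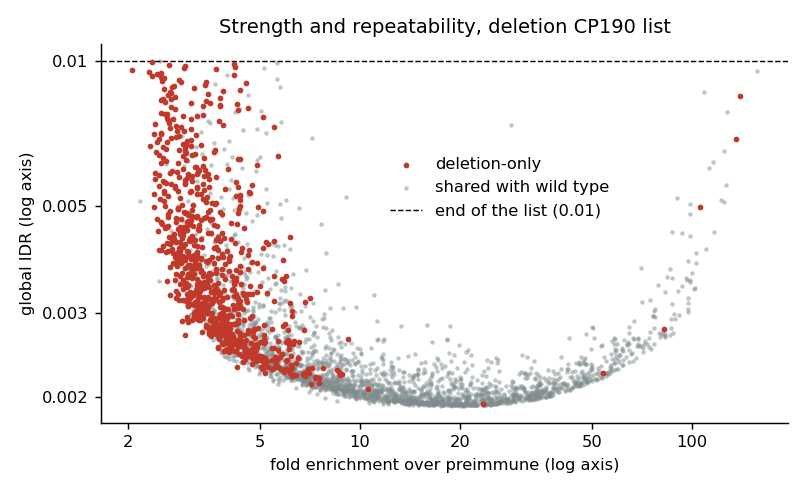
Global IDR (log axis) against fold enrichment (log axis) for the peaks of the deletion CP190 list, with deletion-only peaks in red and shared peaks in grey. Most deletion-only peaks lie at the weak end, 6 lie at 23.5-fold or above, and the values rise towards the limit of 0.01 (dashed line) at both ends.

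The other 4 of the 10 strongest were ordinary peaks of the middle of the list. They lay at X 6719252 to 6719953, between CG14441 and CG3168 (10.6-fold, place 1199), at 2L 9490732 to 9491268, between lncRNA:CR43769 and Gdi, a regulator of Rab GTPases (9.24-fold, place 1317), at 2R 25252776 to 25253536, inside CG30428 (8.84-fold, place 1365), and at X 19309883 to 19310683, between CG8051 and out (8.74-fold, place 1383). As with 783 of all 825 deletion-only peaks, none of the 4 overlapped an HA or dCTCF peak. The nearest such peak was 21162 to 210701 bp away. At the other end, the 3 weakest were at 3R 15933680 to 15933971, between CG5478 and blp (2.33-fold), at 2R 16230547 to 16231003, inside CG15701 (2.31-fold), and at 3R 19864170 to 19864887, partly in CG4686 (2.07-fold, place 3164). The last overlapped a wild-type dCTCF-antibody peak.

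Few deletion-only peaks lay at dCTCF, by either antibody and in either genotype. Of the 825, 22 (2.67%, 1.77 to 4.00) overlapped a deletion HA peak and 19 (2.30%, 1.48 to 3.57) a wild-type HA peak, against 10.3% and 11.4% of all peaks of the deletion CP190 list. With the dCTCF antibody, 24 (2.91%, 1.96 to 4.29) overlapped a deletion peak and 27 (3.27%, 2.26 to 4.72) a wild-type peak, against 10.9% and 12% of the whole list. At least 1 of the 4 lists was overlapped by 42 deletion-only peaks (5.09%, 3.79 to 6.81) and by 447 of 2339 shared peaks (19.1%, 17.6 to 20.8), with 15.5% over the whole list. The difference, deletion-only minus shared, was −14.0 percentage points, with a Newcombe interval of −16.1 to −11.7. Wild-type-only CP190 peaks were on the other side, with 78 of 165 (47.3%, 39.8 to 54.9), a difference of −42.2 points for deletion-only minus wild-type-only (−49.9 to −34.5). Wild-type-only peaks were weak in their list as well, with a median fold enrichment of 3.50.

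**Figure D3:**
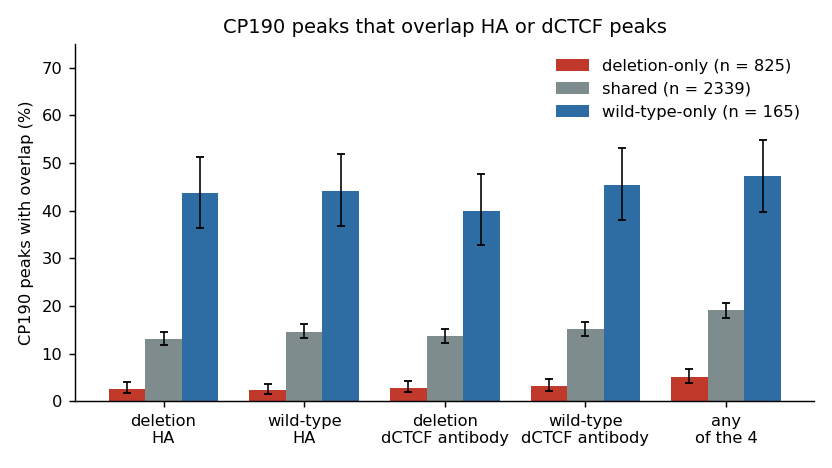
Share of deletion-only (red), shared (grey) and wild-type-only (blue) CP190 peaks that overlap each HA and dCTCF list, or any of them, by at least 1 bp. Bars are shares with 95% Wilson intervals; deletion-only peaks are at 2.30% to 3.27% for the single lists and wild-type-only peaks at 40.0% to 45.5%.

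The difference was also found within 25% steps of strength in the weaker 50% of the list, where all but 17 of the 825 lay. These steps matched strength only in part. Median fold enrichment was 3.24 for deletion-only and 3.69 for shared peaks in the weakest 25%, and 4.83 and 5.65 in the next. In the weakest 25%, 27 of 586 deletion-only peaks (4.61%, 3.19 to 6.62) and 52 of 205 shared peaks (25.4%, 19.9 to 31.7) overlapped an HA or dCTCF peak, a difference of −20.8 points (−27.3 to −14.9). In the next 25% these were 9 of 222 (4.05%, 2.15 to 7.52) and 95 of 569 (16.7%, 13.9 to 20.0), a difference of −12.6 points (−16.4 to −8.16). The stronger 50% of the list held 17 deletion-only peaks and went the other way at its top: 0 of 11 deletion-only and 108 of 780 shared peaks (13.8%, 11.6 to 16.4) overlapped in the next 25%, and 6 of 6 deletion-only and 192 of 785 shared peaks (24.5%, 21.6 to 27.6) in the strongest 25%. Over both of these steps deletion-only minus shared was 16.1 points, with an interval of −1.97 to 39.6. Without the strongest 25% of the list the share of deletion-only peaks was 36 of 819 (4.40%, 3.19 to 6.03). HA and CP190 share the mouse preimmune control, whereas the dCTCF antibody has the rat control, and the shares of deletion-only peaks were 2.30% to 2.67% with HA and 2.91% to 3.27% with the dCTCF antibody. Outside the overlaps, 107 of 783 deletion-only peaks (13.7%, 11.4 to 16.2) and 283 of 1892 shared peaks (15.0%, 13.4 to 16.6) had an HA or dCTCF peak within 10000 bp.

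Of the 42 deletion-only peaks at dCTCF, 18 overlapped lists of both genotypes, 13 wild-type lists only and 11 deletion lists only. Of the 447 shared peaks at dCTCF these were 314, 91 and 42, and of the 489 over the whole list 332, 104 and 53. All 4 lists were overlapped by 12 (1.45%, against 262 shared peaks or 11.2%), and 21 overlapped a single list (2.55%, against 122 shared peaks or 5.22%). Besides the peak between Ubx and Abd-B, the 11 that overlapped all 4 lists were weak CP190 peaks at dCTCF of varied strength, of which 3 are given here, chosen after their values were seen. One at 2R 11451715 to 11453314, between qvr and E(Pc), an enhancer of Polycomb, had 3.44-fold CP190 enrichment (place 2731) beside HA peaks at place 68 of 623 in the deletion line and 60 of 627 in wild type, with summits 547 and 548 bp from its own. A second at 2L 6338334 to 6338962, between Pez and Cpr, had 3.41-fold enrichment (place 2744) beside HA peaks at place 299 in the deletion line and 339 in wild type, with summits 11 and 36 bp away. One more at X 13401005 to 13401525, between Bcat and CG12725, had 3.94-fold enrichment (place 2488) beside HA at place 305 in the deletion line and 349 in wild type. Outside the strongest 25% of the CP190 list, 5 of 18 overlaps with deletion HA and 14 of 17 with wild-type HA were with peaks in the weaker 50% of the HA list. The HA lists end at different IDR limits, as given above, and 5 of the 13 overlaps with stronger deletion HA peaks were with summits 2314 to 3161 bp away. With summits at most 200 bp away, the weaker 50% made up 3 of 10 overlaps with deletion HA and 10 of 12 with wild-type HA. At any summit distance, the weaker 50% of the dCTCF-antibody list made up 12 of 19 overlaps in the deletion line and 16 of 22 in wild type. Overlap did not always mean a shared summit: summits lay within 200 bp of each other in 13 of 22 overlaps with deletion HA, 14 of 19 with wild-type HA, 17 of 24 with the dCTCF antibody in the deletion line and 20 of 27 in wild type. The strength of overlapped HA and dCTCF peaks and these summit distances were not counted for shared CP190 peaks. Whether these counts are particular to deletion-only peaks was therefore not tested.

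Deletion-only peaks were found on all 5 large chromosome arms at like shares. They made up 147 of 574 CP190 peaks on 2L (25.6%, 22.2 to 29.3), 149 of 572 on 2R (26.05%, 22.6 to 29.8), 155 of 628 on 3L (24.7%, 21.5 to 28.2), 195 of 750 on 3R (26%, 23.0 to 29.3) and 177 of 617 on X (28.7%, 25.3 to 32.4). X had the highest share, and X minus the 4 large autosomal arms was 3.09 points with an interval of −0.751 to 7.14. With the deletion list limited to the 2517 strongest peaks, the length of the wild-type list, 83 of 506 X peaks (16.4%) and 235 of 1992 peaks of those arms (11.8%) were deletion-only, a difference of 4.61 points with an interval of 1.28 to 8.33. This limit was chosen after seeing the data. With at least 50% of a peak covered as the overlap, the difference was 4.22 points (0.270 to 8.35). The other alternatives gave intervals across 0, among them the strongest 50% of the deletion list at −0.127 points (−1.11 to 1.79). On chromosome 4 none of the 15 CP190 peaks was deletion-only, which allows a share of up to 20%. Over the span of coding genes, X held 7.66 deletion-only peaks per Mb and the 4 autosomal arms 5.54 to 6.31, and shared peaks numbered 19.04 per Mb on X and 16.9 to 18.3 on those arms.

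Deletion-only peaks lay about as far from shared CP190 peaks as shared peaks lay from each other. The median gap from a deletion-only peak to the nearest shared peak was 13879 bp (interval 12489 to 15583), with quartiles of 5327 and 28138 bp. From a shared peak to the nearest other shared peak it was 13699 bp (12708 to 14554), with quartiles of 5597 and 29066 bp. A shared peak within 1000 bp was found for 29 of 825 deletion-only peaks (3.52%, 2.46 to 5.00) and another shared peak for 112 of 2339 shared peaks (4.79%, 3.99 to 5.73), and within 10000 bp for 345 (41.8%, 38.5 to 45.2) and 932 (39.8%, 37.9 to 41.8). Of the 165 wild-type-only peaks, 2 lay within 1000 bp of a deletion-only peak. The 3 deletion-only peaks farthest from a shared one were at 3L 25229862 to 25230248, between CR40354 and lovit (2247133 bp), at 3R 3374201 to 3374476, between spok, an ecdysone synthesis gene, and Parp1 (413485 bp), and at 2L 15894475 to 15894982, between Tep1 and CG31735 (142867 bp).

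**Figure D4:**
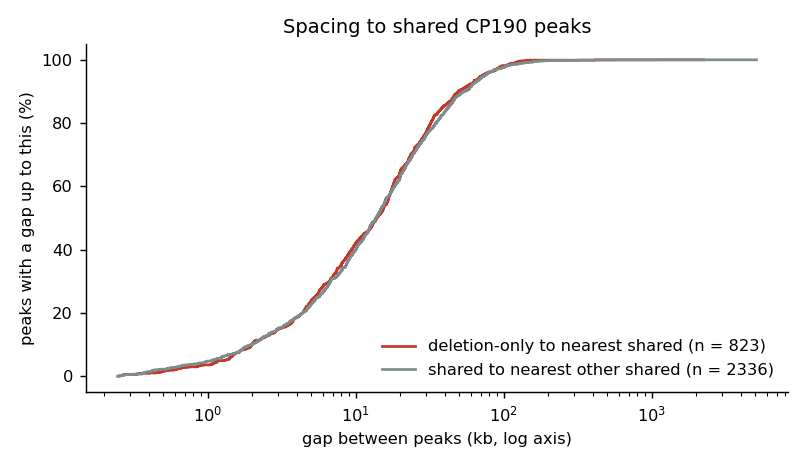
Cumulative share of peaks against the gap in kb (log axis) to the nearest shared CP190 peak, for 823 deletion-only peaks (red) and to the nearest other shared peak for 2336 shared peaks (grey). The curves run together, with medians of 13879 and 13699 bp.

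Along the chromosomes 430 of the 825 deletion-only peaks stood singly, in a list of which 26.1% was deletion-only. These include the 2 peaks on scaffolds without a shared peak. Of 593 runs of consecutive deletion-only peaks, 430 held 1 peak, 116 held 2, 29 held 3, 15 held 4, 2 held 5 and 1 held 6. The run of 6 covered 3R 11734934 to 11828803 and included the peak beside Lk6 described above, with the other 5 in or beside CG14721, Sbf, COX5A, Kyat and CG6959. The runs of 5 were on X, at 8116826 to 8211023 (from CG1575 to slpr and sdt, a cell polarity gene, at 2.58- to 4.60-fold) and at 10463053 to 10559651 (from nocte to spri, at 3.66- to 6.06-fold). Neither run held an HA or dCTCF peak overlap, which in so few peaks is near the share of 5.09% over all deletion-only peaks.

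Deletion-only summits lay close to gene ends. The gene table gives no strand, so starts and ends of genes could not be told apart. On the arms, 503 of 823 deletion-only summits (61.1%, 57.7 to 64.4) were within 200 bp of an end of a protein-coding gene, as were 1121 of 2333 shared summits (48.0%, 46.0 to 50.1), with 51.5% over the whole list. The difference was 13.1 points (9.13 to 16.9), and within 50 bp it was 14.3 points (10.9 to 17.8), with 247 deletion-only summits (30.0%) and 366 shared summits (15.7%). Within steps of strength, which matched strength only in part as given above, the difference was smaller or turned round. In the weakest 25% of the list, 66.8% of deletion-only (62.9 to 70.5) and 62.6% of shared summits (55.7 to 68.9) were within 200 bp, a difference of 4.22 points (−3.26 to 12.0), and within 50 bp 33.0% and 32.0%. In the next 25% the order was turned round within 200 bp, with 47.3% of deletion-only (40.8 to 53.9) and 55.4% of shared summits (51.3 to 59.4), a difference of −8.08 points (−15.7 to −0.340), and within 50 bp the shares were 22.5% and 22.9%.

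**Figure D5:**
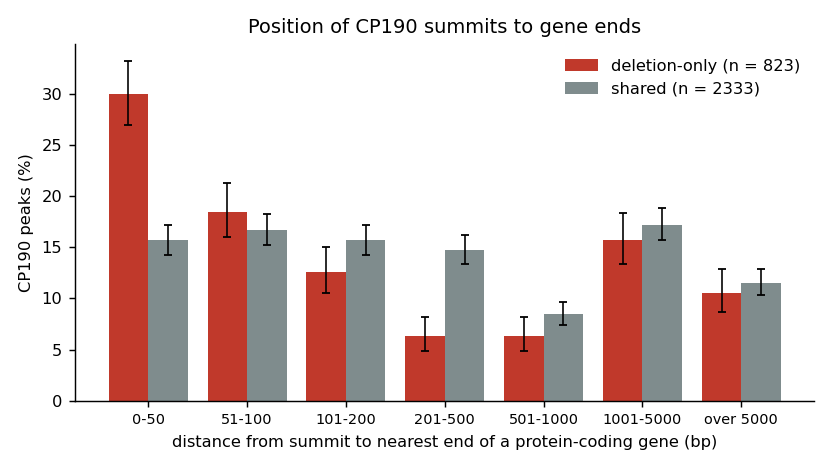
Share of deletion-only (red, n = 823) and shared (grey, n = 2333) CP190 summits by distance in bp to the nearest end of a protein-coding gene, with 95% Wilson intervals. The largest gap is within 50 bp, at 30.0% of deletion-only and 15.7% of shared summits.

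Coding genes held 395 of the 823 deletion-only summits on the arms (48.0%, 44.6 to 51.4) and 875 of 2333 shared summits (37.5%, 35.6 to 39.5), with 40.2% over the whole list. In the weakest 25% of the list these shares were 47.6% (43.6 to 51.7) and 46.8% (40.1 to 53.7), and in the next 25% they were 50.0% (43.5 to 56.5) and 40.6% (36.6 to 44.7). Outside coding genes and over 200 bp from any of their ends lay 109 deletion-only summits (13.2%, 11.1 to 15.7) and 590 shared summits (25.3%, 23.6 to 27.1), with 22.1% over the whole list. Within steps of strength this gap was not seen, at 10.3% (8.07 to 13) of deletion-only and 9.85% (6.47 to 14.7) of shared summits in the weakest 25%, and 19.8% (15.1 to 25.6) and 19.9% (16.8 to 23.4) in the next. Ends of at least 2 coding genes lay within 200 bp of 163 deletion-only summits (19.8%, 17.2 to 22.7) and of 281 shared summits (12.0%, 10.8 to 13.4), with 14.1% over the whole list. This too was closer within steps, at 22.4% (19.2 to 25.99) of deletion-only and 19.2% (14.4 to 25.2) of shared summits in the weakest 25%, and 14.0% (10.0 to 19.1) and 15.2% (12.4 to 18.4) in the next. Gene length was taken once per summit, from the shortest coding gene that held it, so a gene with several summits counted more than once. Its median was 8200 bp (5964 to 10042) over deletion-only summits and 14760 bp (13033 to 18124) over shared summits. In the weakest 25% the medians were 6960 bp (5350 to 9033) and 13067 bp (5883 to 17413), and in the next 25% they were 11672 bp (6098 to 18389) and 11524.5 bp (7445 to 16254), so the intervals overlapped in both steps. The 395 summits fell in 383 genes, of which 12 held 2 deletion-only summits and none held more. Among the 12, and named after their values were seen, were the dystrophin gene Dys and the RNA-binding protein genes heph and bru2.

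Genes of the cytosolic ribosome had the highest share of deletion-only summits among the 11 gene lists. Of 92 such genes, 11 (12.0%) had an end within 200 bp of a deletion-only summit and 32 (34.8%) of a shared summit, against 4.80% and 9.91% of the 13922 protein-coding genes and 3.95% and 8.28% of all 17684 genes on the arms. The 11 were RpL27, RpL28, RpL29, RpL35A, RpL36, RpLP0, RpLP1, RpS14a, RpS14b, RpS23 and RpS30, which were singled out after their values were seen. The strongest of these peaks lay between RpS14a and RpS14b, at X 7934564 to 7935164 (6.16-fold, place 1783), with a further one at the other end of RpS14b (2.40-fold, place 3157). These genes are neighbouring copies that encode the same protein, so the placing of reads between them may be uncertain, which was not tested. Others were beside RpL36 at X 629191 to 629800 (5.85-fold, place 1871), RpLP0 at 3L 22075689 to 22076260 (5.12-fold, place 2048) and RpS30 at 3R 20850367 to 20850762 (4.62-fold, place 2198). None of the peaks at these 11 genes overlapped an HA or dCTCF peak. Of 73 mitochondrial ribosome genes, 6 (8.22%) had a deletion-only and 8 (10.96%) a shared summit at an end. The 6, also singled out after their values were seen, were mRpL14, mRpL16, mRpL22, mRpL32, mRpS16 and mRpS18A, at 3.05- to 5.66-fold enrichment.

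Among 25 genes of insulator proteins and cohesin, 1 (4%) had a deletion-only summit at an end and 3 (12%) a shared one, against the 3.95% and 8.28% of all genes. The 1 was SMC1, a cohesin subunit, with the summit 16 bp from an end (3R 24058084 to 24058814, 3.29-fold, place 2798). None of the 8 Hox genes or 18 segmentation genes had a deletion-only or shared summit within 200 bp of an end. None of 14 heat shock genes, 12 chorion and yolk genes or 274 small nucleolar RNA genes had a deletion-only summit there, and 2 (14.3%), 2 (16.7%) and 3 (1.09%) had a shared one. In lists of 8 to 18 genes a count of 0 is near the share of all genes. Of 295 tRNA genes, 5 (1.69%) had a deletion-only and 19 (6.44%) a shared summit. Of the 5, given after their values were seen, tRNA:Val-TAC-1-2 lay under the strongest peak (5.12-fold, place 2049), and tRNA:Lys-CTT-1-5 and tRNA:Arg-ACG-1-4 lay under 1 peak at 2R 6171427 to 6171778 that also overlapped a wild-type HA peak. Of 260 miRNA genes, 2 (0.769%) had a deletion-only summit, again named after their values were seen, mir-2b-1 (4.31-fold, place 2316) and mir-3645 (3.92-fold, place 2496), and 3 a shared one. Of 1944 lncRNA genes, 13 (0.669%) had a deletion-only and 25 (1.29%) a shared summit at an end.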

How the data were processed

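Each of the 6 antibody and genotype groups has 1 deposited peak list covering its 2 replicates, called relative to a mouse or rat preimmune library, per the labels. The members and gene lists here were chosen with earlier results of these data known. Cutadapt, Bowtie2, Picard and deepTools are named in the submitters' processing notes, with builds dm6 and dm3 and no roles. The peak caller and the IDR settings are not given in the sources used here. The 20 columns of each list have the layout of the IDR tool, which compares 2 sets of calls, and what the sets were is not given. The authors deposited fold enrichment (a linear ratio), p-values and q-values as −log10, local and global IDR as −log10, and a score scaled from the IDR.

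Coordinates are 1-based. The lists use dm6 scaffold names and reach 32068772 on 3R. Genes came from the RefSeq table of Release 6, with 13922 protein-coding genes on the arms. As a check of the build, 51.5% of deletion CP190 summits were within 200 bp of a coding gene end, and 10.4% after a move of 5000 bp. The table holds no strand and no sequence, so distances are to either gene end, and the planned motif search was not run.

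Overlap means at least 1 bp. Places rank fold enrichment within a list, with ties by position. Shares have Wilson intervals, differences of shares Newcombe intervals and medians order-statistic intervals, all at 95%. Peaks are not replicates of a genotype, so these describe the lists. Steps of 10% and 25% are of the deletion CP190 list. Overlaps were identical to those of bedtools 2.31.1 in 30 of 30 pairs of lists, and 200 of 200 peaks whose partners were removed from a simulated copy of the 3164 peaks were found. Alternatives changed the overlap, the list limits, the distance and the lists used. Most peaks were named by this rule: the 10 strongest, the 5 strongest with an HA or dCTCF overlap, 3 on each side of the border, the 3 farthest from a shared peak, the 3 weakest, those between Ubx and Abd-B, the 3 longest runs, and the genes of lists of up to 30 genes with a deletion-only summit within 200 bp of an end. Peaks at 3 places with all 4 overlaps, at ribosomal, tRNA and miRNA genes, and on scaffolds were added after their values were seen, as were genes with 2 summits. Python 3.11.15, numpy 2.4.6, pandas 2.3.3, scipy 1.17.1 and matplotlib 3.10.9 were used.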

Additional observations from a re-analysis of the deposited data

How the results depend on the processing

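Over 10 results, 57 of 90 alternative values counted as the same as the main value and 33 did not, mostly where the weak end of a list was removed. The same meant inside the interval of the main value, or within a factor of 1.5 for the number of peaks. For differences it meant the same side of 0, with an interval that excluded or crossed 0 as the main one did. With the strongest 50% of the deletion list there were 17 deletion-only peaks, of median width 818 bp and median gap 18283 bp, 0.980% of X peaks and 1.07% of all peaks (X minus autosomal arms reversed, −0.127 points, interval across 0), with 47.1% at gene ends and 35.3% at HA or dCTCF peaks. Deletion-only minus shared then reversed to 16.1 points at HA or dCTCF (−1.97 to 39.6) and was 3.55 points at gene ends, both with intervals across 0. With the strongest 50% of both CP190 lists, 406 deletion peaks overlapped no peak of the stronger 50% of the wild-type list. All but 17 of these overlapped a weaker wild-type peak. The 406 had a median width of 806 bp and a median gap of 25679 bp, with 47.8% at gene ends and 7.88% at HA or dCTCF peaks. Limiting the deletion list to the length of the wild-type list, an alternative chosen after seeing the data, gave 318 peaks, 637 bp, 16.4% of X peaks against 12.6% of all 2517 peaks (X minus autosomal arms 4.61 points, interval above 0), 52.8% at gene ends and a difference there of 5.40 points with an interval across 0. Without the strongest 25%, also chosen after, 38.5% of X peaks and 34.5% of all 2373 peaks were deletion-only. With at least 50% of a peak covered as the overlap, X minus autosomal arms, compared across alternatives after seeing the data, was 4.22 points (0.270 to 8.35). Also chosen after, single steps of 25% of the list gave differences at gene ends of 4.22 points (weakest, interval across 0) and −8.08 points (next, reversed). Distances of 500 and 1000 bp gave 67.4% and 73.8% at gene ends. The share at HA or dCTCF was 3.39% with summits at most 200 bp apart, 3.52% with deletion lists only, 3.76% with wild-type lists only, and 6.85% when CP190 peaks counted as shared only with summits at most 200 bp apart. With that last rule deletion-only minus shared was −11.8 points (−14.0 to −9.38). Under the definitions named before it the share of shared peaks was not computed, so the difference was not tested there. The causes were not tested beyond the construction of each alternative. A global IDR limit of 0.001 left no peak in either CP190 list and gave no value. No paired analysis was possible because each list combines both replicates of a group, and for the same reason no replicate could be left out. Sites near the limit of a list cannot be told apart from unbound sites, since depth is unknown.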

Other observations

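On the Y scaffold Y_DS483677v1_random the deletion CP190, deletion HA and deletion dCTCF-antibody lists each held 1 peak and the 3 wild-type lists held 0. The CP190 peak there, at 10815 to 11179, had 3.64-fold enrichment (place 2638) and its summit lay 73 bp from the HA summit (place 610 of 623) and 37 bp from the dCTCF-antibody summit (place 418 of 648). The only other deletion-only peak away from the arms lay on the unplaced scaffold Un_DS484309v1, at 1519 to 1802 (2.59-fold, place 3114), the sole peak of any of the 6 lists on it.

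Both CP190 lists had a few peaks without a partner at their very top. Of the 10 strongest peaks, 2 in the deletion list and 3 in the wild-type list had no CP190 peak of the other genotype. At places 11 to 250 the deletion list had 1 of 40, 1 of 50 and 1 of 150 such peaks in successive steps, and the wild-type list had 0 in each. At places 251 to 500 none of 250 deletion peaks and 7 of 250 wild-type peaks lacked a partner.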
